A study of Mus musculus with 6 samples.

Results

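The genes for the mouse egg coat and for proteins the oocyte secretes were followed across 6 arrays. They are Zp1, Zp2 and Zp3, which encode the glycoproteins of the zona pellucida, Oosp1, which encodes an oocyte-secreted protein, and Astl, which encodes the egg protease ovastacin. Their probes were found by gene name or earlier symbol among the non-control probes, which gave 8 probes of 41174 for 5 genes of 27597 names. Zp1 and Astl had 1 probe each, and Zp2, Zp3 and Oosp1 had 2 each.

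The arrays were single-colour Agilent whole-genome arrays of RNA from B6C3 F1 mice, a hybrid strain. There was 1 array of ooplasts from young females, 1 of ooplasts from climacteric females, 2 of young blastocysts and 2 of climacteric blastocysts. An ooplast is oocyte cytoplasm without the oocyte's chromosomes, climacteric means at the age of reproductive decline, and a blastocyst is the early embryo once trophectoderm and inner cell mass have formed. The title of the series asks whether oocytes keep their power to reprogram a somatic nucleus after fertility declines, and the labels leave unstated how blastocysts were made and how many cells were pooled. The design text calls the replicates biological but names no animals, so p-values here measure only the spread between these samples.

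As background, the zona pellucida is the shell of glycoprotein filaments that the growing oocyte lays down around itself, that sperm bind and that the embryo keeps until it hatches. After fertilization, cortical granules release ovastacin, which cuts ZP2 so that no further sperm bind. The zona genes are transcribed in growing oocytes, where the factor FIGLA pairs with E proteins at E-box sequences of the form CANNTG, and much of the RNA stored in the oocyte is lost in the early embryo.

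Promoter windows from RefSeq (build GRCm38.p6, 250 bases before to 50 after the start site) are shown for the pair of genes with the widest difference between stages among these genes, because zona promoters are known for their E-boxes. Zp3 lies at chr5:135979855-135980154 on the plus strand and Oosp1 at chr19:11691002-11691301 on the minus strand, and capitals mark every CANNTG.
Zp3: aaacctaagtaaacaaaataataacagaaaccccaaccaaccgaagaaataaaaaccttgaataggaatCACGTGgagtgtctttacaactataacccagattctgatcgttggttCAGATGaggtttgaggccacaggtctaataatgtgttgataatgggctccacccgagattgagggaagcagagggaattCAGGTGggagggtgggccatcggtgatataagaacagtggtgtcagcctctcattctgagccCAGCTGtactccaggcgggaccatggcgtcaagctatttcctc
Oosp1: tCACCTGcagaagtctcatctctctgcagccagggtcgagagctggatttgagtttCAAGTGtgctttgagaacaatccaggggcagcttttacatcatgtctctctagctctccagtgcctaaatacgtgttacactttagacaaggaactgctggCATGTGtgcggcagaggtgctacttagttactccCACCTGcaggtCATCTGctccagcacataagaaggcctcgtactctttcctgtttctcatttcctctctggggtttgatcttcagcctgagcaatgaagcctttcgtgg
The table held 1 window each for Zp3 and Oosp1 and 2 for Astl. Zp1 and Zp2 were not matched there.

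CANNTG reads the same on both strands, so a match counts once. The Zp3 window held 4 matches, whose first bases lay at positions -181, -134, -55 and 8 from the start site. The match at -181 was CACGTG. The Oosp1 window held 5 matches, at -249, -194, -93, -59 and -48, none of them CACGTG. The downstream Astl window held 3 matches at -109, -83 and -59, and the upstream one held 0. CANNTG occurred in 72.3% of 32851 windows of the same length, 17.6% held at least 3 copies, and CACGTG occurred in 7.15%. The letters TATAA, searched on both strands, occurred in 24.9% of windows, at -160 and -29 in Zp3 and in neither Oosp1 nor Astl. A match is a description of these letters and shows no binding.

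Levels below are log2 of the processed signal minus the array's 75th percentile, so 0 stands for that percentile. A probe's level is compared between arrays and not with another probe's, except in the marker sums. These add linear levels over a list's probes, so the brightest probes weigh most in a sum. Of all spots, 42.2% and 42.4% were well above background in ooplasts and from 49.9% to 57.3% in blastocysts. The 75th percentile itself was 235.5 and 237.8 signal units in ooplasts and from 721.2 to 1111.5 in blastocysts, so the scaling bears on every difference between stages. The ooplasts shared slide 1 with the first replicate of both blastocyst groups, and their second replicates were on slide 2. The labelled stages were checked against markers. All 5 oocyte markers were lower in blastocysts, with a summed level of 2270 and 2280 on the ooplast arrays against 1.64 to 2.72 on the blastocyst arrays, and all 5 trophectoderm markers were higher, with 24.6 and 24.5 against 1110 to 1360. Of 4 inner cell mass markers, 3 were higher (2 with normexp), 1 of them, Gata6, by its highest probe (5.06) but not by another (-1.52, adjusted p = 0.0037). For markers of cumulus and granulosa cells, which surround the oocyte, 7 of 10 and 8 of 10 were well above background on the ooplast arrays. On the blastocyst arrays 5 or 6 were. The summed levels were 437 in young and 92.7 in climacteric ooplasts against 4.38 to 6.9 in blastocysts. Of the 437, Inha gave 348, and without it the ooplast sums were 89.5 and 85.8. Cyp19a1 stood at 6.30 and 6.22 in log2 on the ooplast arrays, and Fshr and Has2 were above background on neither.

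Every member was lower on average in blastocysts than in ooplasts, and 7 of the 8 probes fell past the threshold. Among these 7, Zp2 A_52_P331981 was well above background on no blastocyst array and entered the test through its ooplast readings alone. Oosp1 was at least 8410-fold lower by 1 probe and 8090-fold by the other. These bounds hold only for the percentile scaling with all arrays kept. The lowest measured Oosp1 folds over the scalings were 2580 and 2890, with no scaling between arrays. Under the percentile scaling Zp3 fell 101-fold and 91.5-fold, Astl fell 11.7-fold and Zp1 fell 7.99-fold. Zp2 fell at least 5.73-fold by 1 probe under the same scaling (5.62-fold as measured with no scaling), and its other probe did not pass. Over all probes tested by limma on the 6 arrays with age as a term, 68.7% of 24180 passed a Benjamini-Hochberg adjusted p of 0.05 and 37.6% passed as lower. The median difference over all of them was -0.34. Ooplasts had 1 array per age, so the stage fit holds no ooplast replicates. The spread behind its standard errors and p-values came from the blastocyst pairs and from how far the age difference varied between stages. Cumulus and granulosa markers moved the same way, with 6 of 9 tested lower in blastocysts (5 lower and 3 higher with no scaling between arrays), and their part in the result was not tested. Each array measured RNA from all cells of its sample, so fewer cells of a type and less RNA per cell cannot be told apart.

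**Figure D1:**
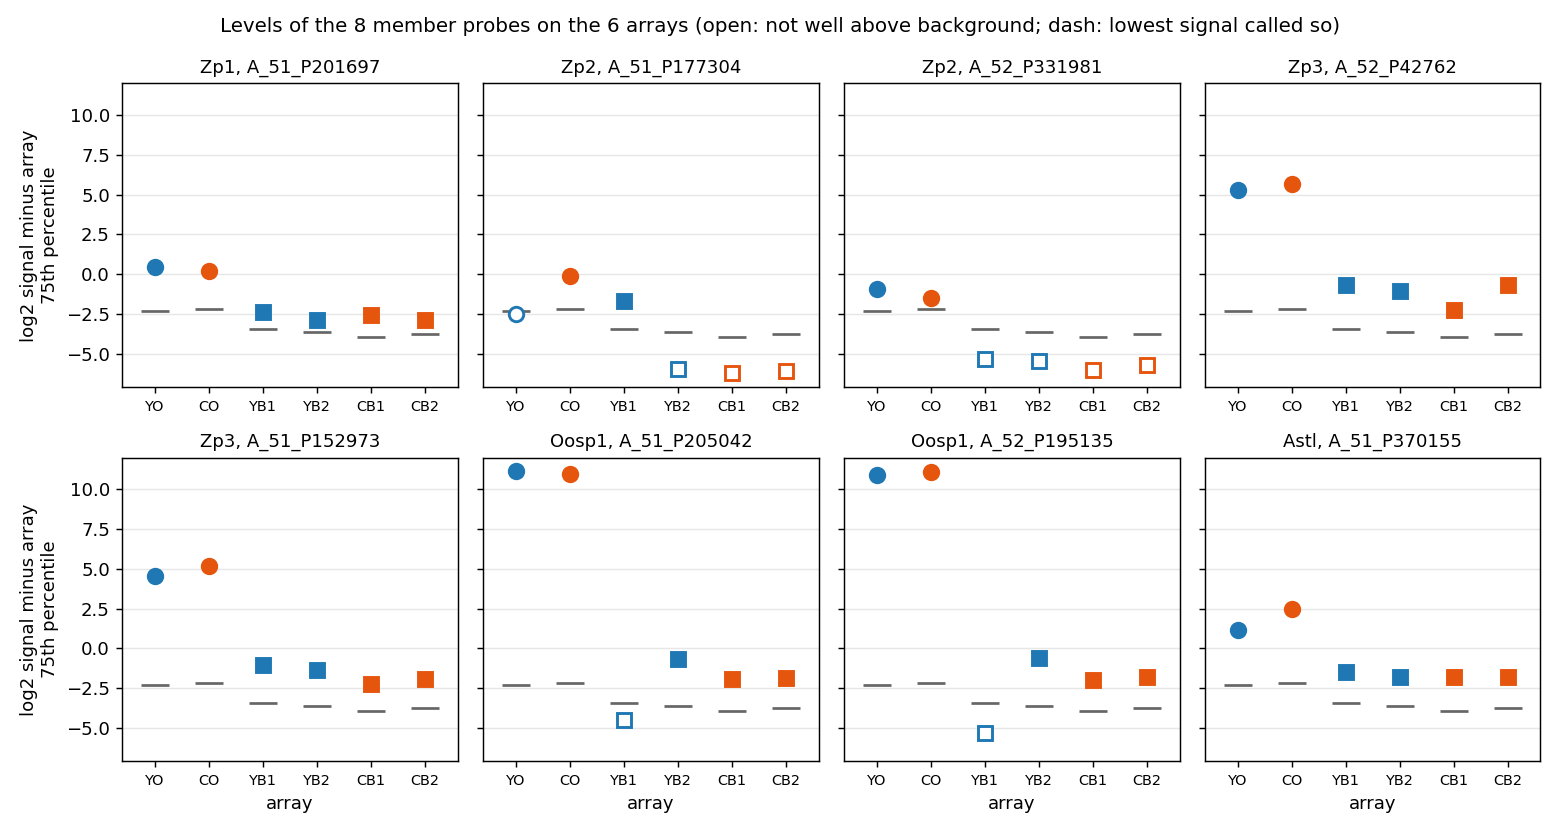
Levels of the 8 probes on each array, in log2 relative to each array's 75th percentile, for young (blue) and climacteric (orange) ooplasts (circles, YO and CO) and blastocysts (squares, YB and CB with the replicate number). Open symbols are not well above background and dashes mark the lowest signal called well above background on that array. In the panel of Zp2 probe A_51_P177304 the stages overlap, with young blastocyst replicate 1 above the young ooplast array. The share of all probes whose stages overlap was not counted.

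Zp1 encodes the zona protein that cross-links the filaments of the coat. Its probe A_51_P201697 (mm8, chr19:10983536-10983595, minus strand) stood at 0.46 in young and 0.17 in climacteric ooplasts. In blastocysts it stood at -2.41 and -2.87 in the young pair and at -2.58 and -2.86 in the climacteric pair. All 6 arrays were well above background and the stages did not overlap. The difference, blastocyst minus ooplast, was -3.00 ± 0.28 (SE, limma, adjusted p = 0.000254). The ooplast mean was 0.32 ± 0.20 (SD, n = 2) and the blastocyst mean -2.68 ± 0.22 (SD, n = 4). Before scaling, the signal was 324.5 and 268.4 units in ooplasts and 117.3 to 177.8 in blastocysts.

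Zp2 encodes the zona protein that sperm bind and that ovastacin cuts. Its probes disagreed. Probe A_52_P331981 (mm8, chr7:119926704-119926860, minus strand) stood at -0.91 in young and -1.48 in climacteric ooplasts, both well above background. Blastocysts stood at -5.35 and -5.47 in the young pair and at -6.04 and -5.72 in the climacteric pair, none of them well above background. The measured blastocyst levels are therefore only a bound. With each blastocyst array set no lower than the lowest signal called well above background on it, a mean of -3.71, the ooplast mean of -1.19 was at least 5.73-fold higher. This bound rests largely on the scaling. Before scaling, the ooplast signals were 125.6 and 85.5 units. The lowest signals called well above background on the blastocyst arrays were 61.9 to 89.1 units. The fitted difference of the measured levels was -4.45 ± 0.26 (limma, adjusted p = 5.54e-05). It takes undetected blastocyst readings as measured, and the probe was tested only because its ooplast readings were well above background. Its standard error and p-value therefore do not measure a spread of Zp2 levels in blastocysts.

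The other Zp2 probe, A_51_P177304 (mm8, chr7:119926901-119927048, minus strand), stood at -2.52 in young and -0.13 in climacteric ooplasts. Blastocysts stood at -1.71 and -5.95 in the young pair and at -6.25 and -6.09 in the climacteric pair. Only the climacteric ooplast array and young blastocyst replicate 1 read well above background, and the stages overlapped, because that blastocyst array lay above the young ooplast array. The stage difference was -3.68 ± 1.47 (95% interval -7.29 to -0.06, limma, adjusted p = 0.0662). It was -4.93 (adjusted p = 0.00309) without young blastocyst replicate 1 and -6.04 (adjusted p = 0.0317) without the young ooplast array. The latter fit holds 1 ooplast array, which is assumed to vary like the blastocysts. With normexp background correction it was -2.17 (adjusted p = 0.0238). The A_52_P331981 probe, on the same arrays, was low on young blastocyst replicate 1.

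Zp3 encodes the zona protein that forms the filaments together with ZP2. Probe A_52_P42762 (mm8, chr5:136273038-136273097, plus strand) stood at 5.27 in young and 5.70 in climacteric ooplasts. Blastocysts stood at -0.66 and -1.08 in the young pair and at -2.23 and -0.71 in the climacteric pair. All 6 arrays were well above background and the stages were far apart, by -6.65 ± 0.51 (limma, adjusted p = 0.000126). Probe A_51_P152973, placed over chr5:136272217-136273067, stood at 4.52 and 5.19 in ooplasts, at -1.05 and -1.37 in young and at -2.25 and -1.96 in climacteric blastocysts. It differed by -6.52 ± 0.42 (adjusted p = 7.04e-05), 91.5-fold, which became 157-fold without the young ooplast array and 53.3-fold without the climacteric one. The probes' intervals, -7.91 to -5.39 and -7.54 to -5.49, overlapped nearly in full. What remained in blastocysts was 2.12% to 4.91% of the mean unscaled ooplast signal by the first probe and 3.1% to 6.09% by the second.

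Oosp1 had the widest difference of the 8 probes. Its probes A_51_P205042 (mm8, chr19:11734728-11734787) and A_52_P195135 (chr19:11734718-11734777), both on the minus strand, overlap, so they are not independent readings. The first stood at 11.13 in young and 10.99 in climacteric ooplasts, and the second at 10.91 and 11.11. Their unscaled signals of 451757.2 to 526787.2 units were below the saturation values of 690068 to 694662 and no spot was called saturated. In blastocysts the first probe stood at -4.49 and -0.66 in the young pair and at -1.91 and -1.90 in the climacteric pair. The second stood at -5.36 and -0.64, then at -1.98 and -1.83. Both probes were not well above background on young blastocyst replicate 1 and well above it on the other 3 blastocyst arrays.

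For the bounds on Oosp1, young blastocyst replicate 1 was held at the lowest signal called well above background on it. Oosp1 was at least 8410-fold lower in blastocysts by the first probe and at least 8090-fold by the second. These bounds hold only for the percentile scaling with all arrays kept. The fitted differences of the measured levels were -13.30 ± 1.01 (limma, adjusted p = 0.00012) and -13.46 ± 1.23 (adjusted p = 0.000235). Both differences take the undetected reading of young blastocyst replicate 1 as measured. As folds these are 10100 and 11300, and leaving out 1 array moved them widely, to 5480 and 5350 without young blastocyst replicate 1 and to 17100 and 21800 without young replicate 2. Unscaled blastocyst signal was at most 0.146% of the mean ooplast signal, on young replicate 2. On young replicate 1 it lay under the lowest signal called well above background there, 0.0131% and 0.0135% of the ooplast means. The young blastocyst pair were at least 2.79 and 2.81 apart on the log2 scale by the 2 probes, and the climacteric pair 0.01 and 0.14 apart. Young blastocyst replicate 1 also had the lowest share of spots above background of the 4 blastocyst arrays, 49.9%. Gdf9, an oocyte growth factor gene, stood at 0.91 on that array, within its range of 0.47 to 1.38 on the 4 blastocyst arrays, all well above background. The cause of the low Oosp1 reading on young replicate 1 was not tested.

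Astl encodes ovastacin. Its probe A_51_P370155 (mm8, chr2:127048214-127048273, plus strand) stood at 1.15 in young and 2.47 in climacteric ooplasts. Blastocysts stood at -1.53 and -1.82 in the young pair and at -1.81 and -1.82 in the climacteric pair. All 6 arrays were well above background, the stages did not overlap, and the ooplast pair was spread more widely than the blastocyst arrays. The stage difference was -3.55 ± 0.39 (limma, adjusted p = 0.000504). It ran from -4.28 without the young ooplast array to -2.82 without the climacteric one, 19.5-fold and 7.04-fold.

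The size of these differences rests on the scaling, and for the dimmer members strongly so. The median over all probes tested was -0.34 with the 75th percentile, -0.17 with quantile normalization, -0.60 with normexp and 1.63 with no scaling between arrays, and the share of calls that were lower was 54.7%, 50.6%, 64.3% and 16.8% in turn. With no scaling, Zp1 differed by -1.03 (2.05-fold, adjusted p = 0.0374) and Astl by -1.59 (3-fold, adjusted p = 0.0133). Zp2 A_52_P331981 then differed by -2.49 (5.62-fold, limma, adjusted p = 0.000534), against -4.45 with the 75th percentile and -2.72 with normexp. All of these take its undetected blastocyst readings as measured, so they cannot be set beside the bound of 5.73-fold. Zp3 differed by -4.69 and -4.55 with no scaling, and Oosp1 by -11.33 and -11.50, 2580-fold and 2890-fold. By measured levels Oosp1 was 4040-fold and 4790-fold lower with quantile normalization, and 4030-fold and 4090-fold with normexp. The same 7 probes passed as lower under each of these scalings, with Zp2 A_51_P177304 added under normexp. Zp2 A_52_P331981 counts among the 7 through undetected blastocyst readings. Relative to the median of all probes, Zp1 stood at -2.66 with the 75th percentile and at -1.64 with normexp.

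**Figure D2:**
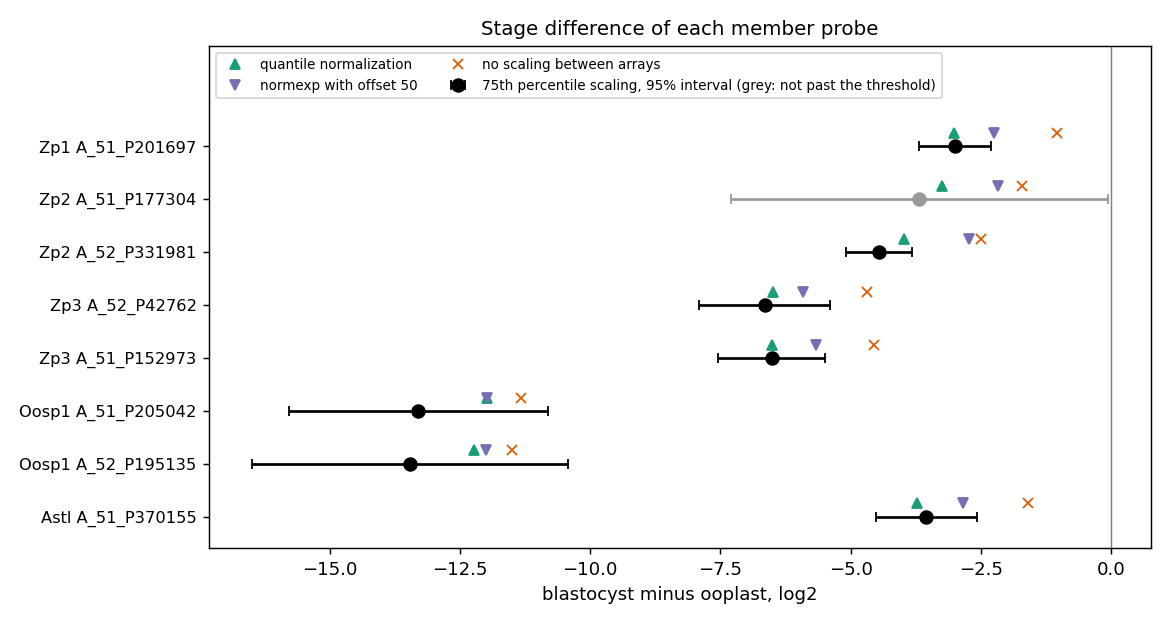
Difference between stages, blastocyst minus ooplast in log2, for each of the 8 probes. Points with bars are the 75th percentile scaling with the 95% interval of the fit (grey where the adjusted p misses 0.05, Zp2 A_51_P177304), and triangles and crosses are quantile normalization, normexp and no scaling between arrays. Oosp1 lies from -13.46 to -11.33 over the scalings drawn, Zp3 from -6.65 to -4.55, and the others nearer to 0, all below it.

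Between ages, the ooplasts have 1 array each, so no test was made and the values stand as a description. Of the 7 probes well above background on both ooplast arrays, Astl alone was at least 2-fold apart, 2.5-fold higher in climacteric ooplasts (1.32 on the log2 scale, 1.12 to 1.54 over the other scalings). Of all 15518 probes measured on both arrays, 17.3% were that far apart, and their median difference was 0.14. Zp3 differed by 0.43 and 0.67, Zp1 by -0.29, Zp2 A_52_P331981 by -0.57, and Oosp1 by -0.14 and 0.20. Zp2 A_51_P177304 differed by 2.39, but its young array was not well above background.

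Markers of other cells also differed between the ooplast arrays. The summed macrophage and leucocyte markers stood at 2.88 in young and 35.6 in climacteric ooplasts, with 4 and 7 of 8 above background. Lyz2, a macrophage lysozyme gene, stood at -4.48 and 3.94. Without it the sums were 2.83 and 20.2. The cumulus and granulosa sum went the other way, from 437 to 92.7, through Inha, an inhibin gene, at 8.44 and 2.80, and without Inha the sums were 89.5 and 85.8. The part of these markers in the Astl value was not tested.

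In blastocysts no member passed the test for age. Of 21649 probes tested by limma on the 4 blastocyst arrays, 0 passed an adjusted p of 0.05, that is 0%, and 1213 had an unadjusted p under 0.05. The 6 member probes tested gave wide intervals that do not show equal levels. Zp1 differed by -0.08, climacteric minus young (95% interval -0.92 to 0.76), and Astl by -0.15 (-0.91 to 0.61). Zp3 differed by -0.60 (-2.04 to 0.84) by A_52_P42762 and by -0.89 (-1.69 to -0.09, unadjusted p = 0.035, adjusted p = 0.839) by A_51_P152973. On the latter probe both climacteric arrays, at -2.25 and -1.96, lay below both young arrays, at -1.05 and -1.37.

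Within slides the blastocyst ages did not always keep 1 direction. Zp3 A_52_P42762 differed by -1.57 on slide 1 and by 0.37 on slide 2, and A_51_P152973 by -1.20 and -0.59. Climacteric replicate 1, the lowest array for Zp3, also carried Lyz2 at 5.07, not well above background on the other blastocyst arrays. This 1 gene made up 33.5 of the summed macrophage and leucocyte level of 37.7 on that array, and without it the sum was 4.21 against 2.59 to 2.88 on the others. Its part in the Zp3 value was not tested. Oosp1 differed by 2.58 and 3.39 on slide 1, where the young array was not well above background, and by -1.24 and -1.19 on slide 2. Its fitted age differences of 0.67 (-2.43 to 3.76) and 1.1 (-2.69 to 4.88) became -1.25 and -1.26 without young blastocyst replicate 1, so that array decides their direction. Neither Zp2 probe passed the filter here, since neither was well above background on both arrays of a blastocyst group. With no filter they differed by -2.34 (A_51_P177304, adjusted p = 0.703) and -0.47 (A_52_P331981, adjusted p = 0.703).

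The age difference in ooplasts was then set against that in blastocysts by the interaction term of the limma fit. Of 24180 probes 0.426% passed an adjusted p of 0.05, and no member did. With 1 ooplast array per age, all the spread behind these values came from the 4 blastocyst arrays, and the ooplasts are assumed to vary like them. Astl gave 1.47 ± 0.52 (95% interval 0.12 to 2.82, unadjusted p = 0.0379, adjusted p = 0.503) and Zp3 A_51_P152973 gave 1.56 ± 0.55 (0.14 to 2.98, adjusted p = 0.497). For Zp3 A_52_P42762 the term was 1.03 (-1.55 to 3.61), for Zp1 -0.21 (-1.69 to 1.28), and for Oosp1 -0.81 (-6.39 to 4.77) and -0.89 (-7.72 to 5.93). Zp2 gave -0.10 (-1.47 to 1.27) by A_52_P331981 and the largest value, 4.73 (-1.43 to 10.89, adjusted p = 0.703), by A_51_P177304. The latter was 2.61 (adjusted p = 0.303) without young blastocyst replicate 1 and 6.85 (adjusted p = 0.0648) without young replicate 2, and its young ooplast reading was not well above background.

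**Figure D3:**
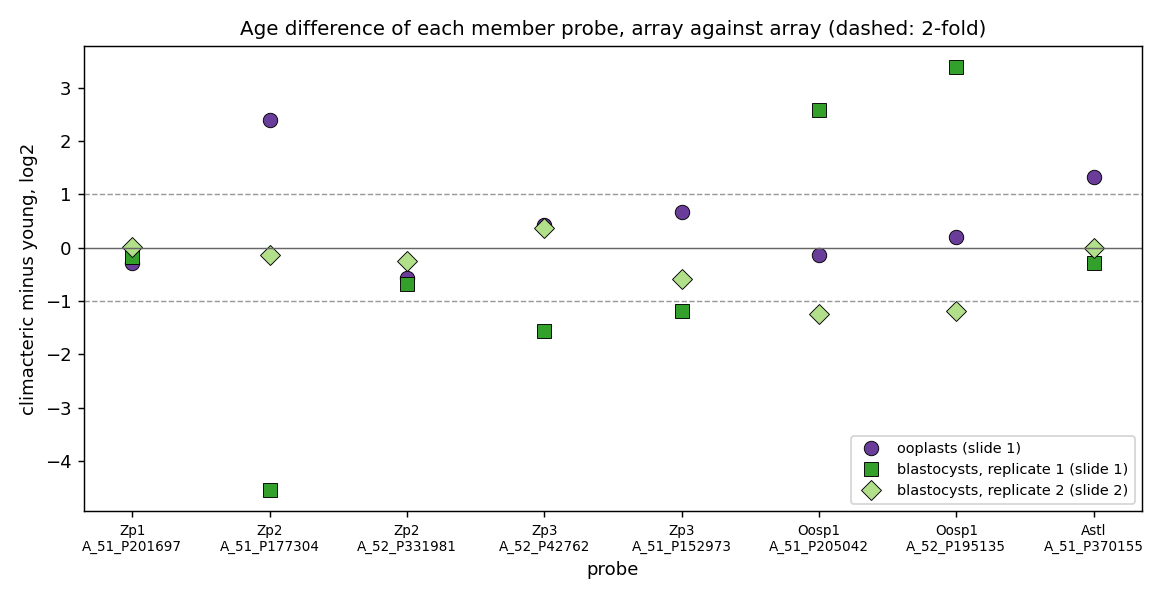
Age difference of each probe, climacteric minus young in log2, between the 2 ooplast arrays (circles) and between the blastocyst arrays of replicate 1 (squares, slide 1) and replicate 2 (diamonds, slide 2). Dashed lines mark 2-fold. Astl lies at 1.32 in ooplasts and near 0 in both blastocyst pairs, and both Oosp1 probes lie above 2 on slide 1 and below -1 on slide 2.

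The related genes were read with 1 probe a gene, that with the highest mean over the 6 arrays. Of all 24180 probes tested, 37.6% passed as lower in blastocysts. A gene above background in ooplasts alone enters the test only by being high there, which favours a fall. Among other factors that oocytes secrete, 5 of 6 genes had a probe and all 5 fell in blastocysts (median -9.96). Gdf9, a growth factor that acts on cumulus cells, stood at 10.89 on both ooplast arrays and fell by 9.96 ± 0.30. Bmp15, its close partner, stood at 6.69 and 6.79, was above background on 1 blastocyst array and was at least 1190-fold lower there (measured levels -11.18 ± 0.71). Oosp3, which lies beside Oosp1 in RefSeq's gene order, stood at 7.82 and 8.31 in ooplasts, was above background on no blastocyst array and was at least 3500-fold lower there. Bmp6 was at least 14.3-fold lower. Fgf8, a fibroblast growth factor gene, fell by 2.83 ± 0.24, and with no scaling it differed by -0.87 (adjusted p = 0.0764). Oosp2, the neighbour on the other side, had no probe.

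The proteins of the egg membrane that sperm meet after the coat did not move together. Izumo1r, the egg receptor for the sperm protein IZUMO1, fell by 3.64 ± 0.28, from 0.52 and 0.51 to between -3.38 and -2.91. Cd9, a tetraspanin needed for fusion, rose by 6.97 ± 0.25, from 0.53 and 0.29 to between 7.15 and 7.54, and the tetraspanin Cd81 rose by 1.68 ± 0.30. Zp3r, a sperm protein gene, was above background on no array, and Zp4 had no probe.

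Of 8 transcription factors of zona and oocyte genes, 7 had a probe, 6 were tested and all 6 fell (median -3.45). Figla, which drives the zona genes, was not tested: it was above background on neither ooplast array, at -2.77 and -4.24, and on 1 blastocyst array. Tcf3, which encodes an E protein that pairs with FIGLA, stood at 4.55 and 5.92 in ooplasts and fell by 3.87 ± 0.38. Tcf12, another E protein gene, fell by 3.02 ± 0.31 by its highest probe, while its other tested probes differed by 2.08 and 1.27, so its direction rests on the probe. Nobox, an oocyte homeobox gene, was at least 173-fold lower in blastocysts, and Lhx8, a LIM homeobox gene above background on 1 blastocyst array, was at least 736-fold lower (measured levels -10.73 ± 0.86, and -5.60 by its other probe). With no scaling, 4 of the 6 passed as lower. Sohlh2 was then at -0.74 (adjusted p = 0.145) and Taf4b at 0.68 (adjusted p = 0.133), against -2.71 and -1.28 before.

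**Figure D4:**
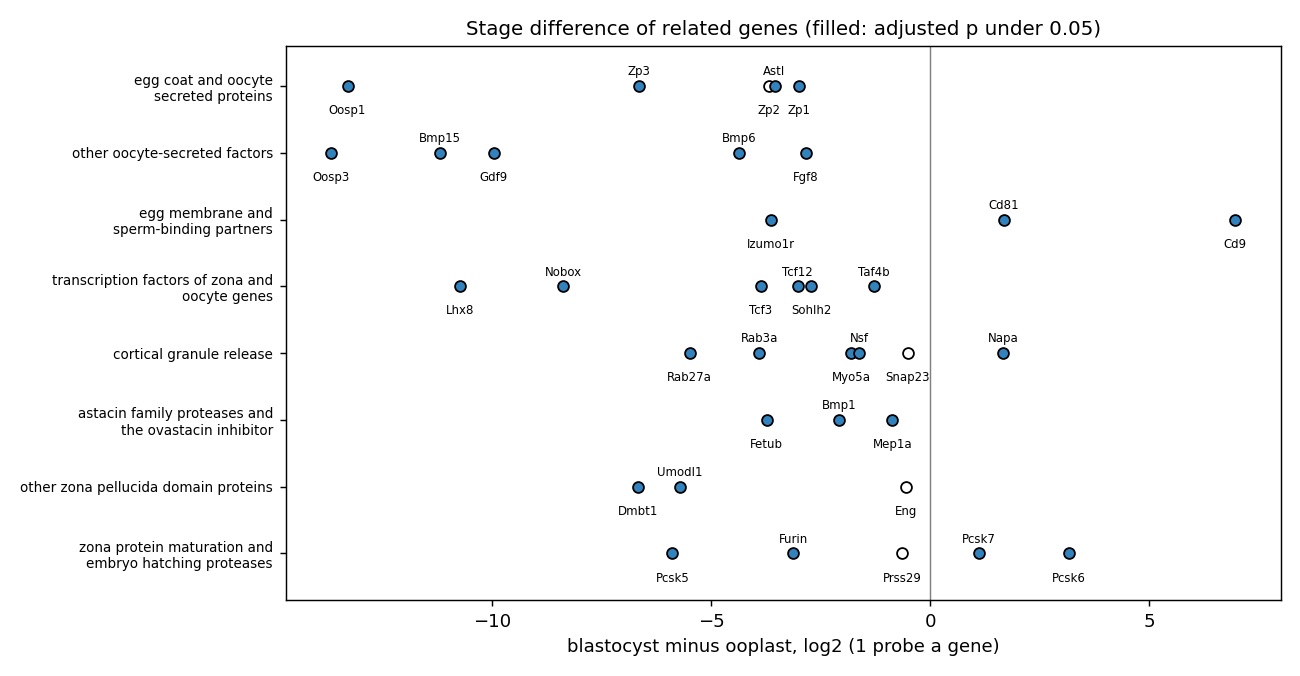
Difference between stages, blastocyst minus ooplast in log2 with 1 probe a gene, for the members and 7 lists of related genes. Filled points passed an adjusted p of 0.05 in the limma fit over all probes and open points did not. Oocyte-secreted factors and transcription factors lie below 0, and Cd9, Cd81, Pcsk6, Pcsk7 and Napa lie above it.

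For the release of cortical granules, which store ovastacin, 6 of 7 genes were tested, 4 fell and 1 rose (median -1.71). Rab3a, a small GTPase of secretory vesicles, fell by 3.90 ± 0.34. Rab27a was at least 15.2-fold lower, though its other probe differed by -0.49. Napa, a cofactor that resets the fusion machinery, rose by 1.67 by its highest probe (1.47 and adjusted p = 0.05 with the percentile taken over detected probes) and differed by -0.72 by the other, and Snap23, a fusion protein gene, was at -0.51 (adjusted p = 0.173). With no scaling 2 of the 6 passed as lower and 2 as higher, so the direction of this group depends on the scaling.

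Among astacin proteases and the ovastacin inhibitor, 3 of 6 genes were tested and all 3 fell (median -2.08). Fetub, which encodes fetuin-B, the inhibitor of ovastacin, stood at 9.11 in young and 7.51 in climacteric ooplasts, and fell by 3.73 ± 0.36. Its blastocyst levels were 5.21 and 5.86 in the young pair and 4.04 and 3.21 in the climacteric pair, so the climacteric array or arrays were the lower at both stages. The age difference in blastocysts was -1.91 (limma, adjusted p = 0.593). Bmp1, a procollagen protease gene, differed by -2.08 and Mep1a, a meprin gene, by -0.86 (adjusted p = 0.0466), and with no scaling they were at -0.12 (adjusted p = 0.8) and 1.1 (adjusted p = 0.0246), so their direction depends on it.

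Of 10 other genes with a zona pellucida domain, 3 were tested. Dmbt1, a secreted epithelial glycoprotein gene, stood at 8.30 in young and 5.28 in climacteric ooplasts. Its blastocyst levels were 0.42 and 3.64 in the young pair and -1.45 and -2.14 in the climacteric pair. It fell by 6.67 ± 0.88, and its age difference in blastocysts was -3.83 (limma, adjusted p = 0.704). Umodl1 was at least 12.2-fold lower in blastocysts, and Eng was at -0.54 (adjusted p = 0.15). Of the proteases that mature zona proteins or free the embryo from its coat, 5 of 6 were tested, 2 fell and 2 rose. Furin, a convertase gene, fell by 3.12 ± 0.31 and Pcsk5 was at least 20.2-fold lower. Pcsk6, another convertase gene, rose by 3.18 ± 0.27 by its highest probe and differed by 0.59 (adjusted p = 0.339) by the other. Pcsk7 rose by 1.11, which missed the threshold with quantile normalization (0.97, adjusted p = 0.0607). Prss29, a hatching protease gene, was at -0.63 (adjusted p = 0.161). With no scaling, Eng and Prss29 were at 1.43 and 1.33.

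Between the ooplast arrays, none of the other oocyte-secreted or egg membrane genes measured on both was 2-fold apart. Fetub differed by -1.60 and Dmbt1 by -3.02, climacteric minus young. Tcf3 differed by 1.37 and Pcsk7 by 1.32, and Nobox by -1.10, Nsf by -1.33 and Pcsk5 by -1.04. By list, this was 1 higher and 1 lower of 6 transcription factors and 1 of 6 cortical granule genes. It was 1 of 3 astacin and inhibitor genes, 1 of 2 zona pellucida domain genes, and 1 higher and 1 lower of 4 maturation and hatching proteases. Of all 15518 probes measured on both arrays, 17.3% were at least 2-fold apart. These are single arrays and no test was made.

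The genes nearest to each member were taken by the root mean square difference of mean-centred log2 levels over the 6 arrays, among 13642 probes above background on both ooplast arrays. Nearest to Oosp1 were Pramel32 at 0.26, Fbxw19 at 0.57 and Bcl2l10 at 0.96. Pramel32 stood at 9.80 and 9.81 in ooplasts, at -5.19 (not well above background) and -1.75 in young and at -3.43 and -3.29 in climacteric blastocysts. Fbxw19 stood at 8.68 and 8.55, then at -5.59 and -2.60, and at -4.26 and -4.83, with -2.60 alone of these well above background. Like Oosp1, these genes were lowest on young blastocyst replicate 1 and highest among blastocysts on young replicate 2. They were picked for likeness to Oosp1 on these same arrays, so the shared order follows from the choice and is no separate evidence. On the latter array Oosp1 gave 0.139% and 0.146% of its mean ooplast signal, Pramel32 0.157%, Fbxw19 0.198% and Bcl2l10 0.237%.

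**Figure D5:**
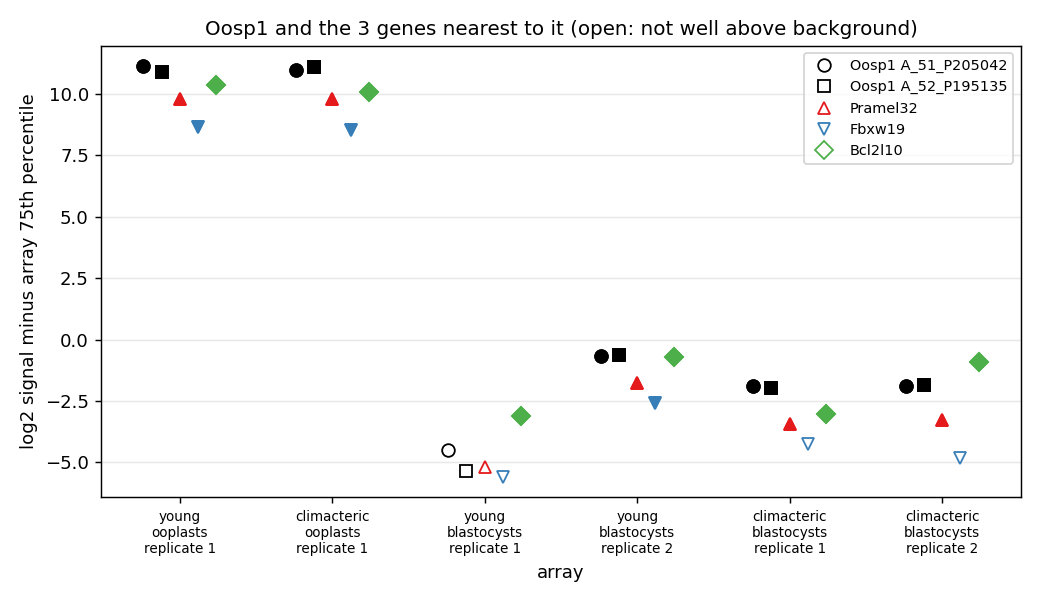
Levels of both Oosp1 probes and of Pramel32, Fbxw19 and Bcl2l10 on each array, in log2 relative to each array's 75th percentile. Open symbols are not well above background. All lie above 8 on the ooplast arrays, and Oosp1, Pramel32 and Fbxw19 are lowest on young blastocyst replicate 1 and highest of the blastocysts on young replicate 2. The other genes were picked for likeness to Oosp1 on these arrays.

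Nearest to Zp3 were Gdpd1 at 0.26, Tesc at 0.30 and Cnot7 at 0.32, with stage differences of -6.74, -6.12 and -6.39. Lonrf2, Med27 and Gpatch8 were nearest to Zp1, at 0.09, 0.10 and 0.11. For Astl they were Znfx1, Ppp1r10 and Magi1, at 0.07, 0.13 and 0.15, and these too were higher in climacteric than in young ooplasts, by 1.20, 1.13 and 1.31. Zp2 was read here by A_51_P177304. Add2 at 0.52, Cdk20 at 0.54 and Eps8 at 0.72 came nearest to it, and all 3 were above background on young blastocyst replicate 1 alone of the 4 blastocyst arrays. The measure orders genes by likeness on these 6 arrays and says nothing of shared function. A pattern that a nearest gene shares with its member, such as the Astl or Zp2 ones above, follows from this choice and lends it no support.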

How the data were processed

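RNA from 6 samples was measured on 1-colour (Cy3) arrays, and per the file headers the deposited spot intensity is Agilent's processed signal, background-subtracted and not scaled between arrays, from Feature Extraction 9.5 per the submitters' processing notes. The log2 values of the authors' deposited table came within 5e-07 of quantile-normalized processed signal (column medians 6.25) and served as an alternative. Probe positions are those of the files (mm8). Exon and UTR positions are not given, because no mm8 annotation was used here.

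Control spots were dropped and log2 signal was scaled by each array's 75th percentile. Probes were tested where some group of the comparison had all its arrays well above background, each probe by itself, with limma 3.58.1 in R 4.3.3 (two-sided, Benjamini-Hochberg over all probes, threshold 0.05). The fits were first tested on simulated data. Members and gene lists were chosen with earlier results of these data known, every member probe is given, and up to 6 genes of a list are named. From the cortical granule list, 1 gene is not reported here and was left out of its counts. A fold written "at least" sets the mean of the brighter group against dim arrays held at the lowest signal called well above background. It holds for the 75th percentile scaling only, and another scaling can give a smaller fold. Alternatives were other scalings, background correction, filters, 1 probe a gene, the replicate block, slide 1 alone, each age alone, and each array left out. Replicate numbers were not taken to pair samples. Their deviations correlated at 0.142 over 2 pairs. Array number limits the precision. Figures were drawn with matplotlib 3.10.9.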

Additional observations from a re-analysis of the deposited data

Results flagged for a closer look

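On the 4 blastocyst arrays, which mix both ages, 1 array stood apart for 2 of the 8 probes. Zp2 A_51_P177304 read -1.71 on young blastocyst replicate 1, while the other 3 arrays lay between -6.25 and -5.95, and the gap to the nearest of them was 0.934 of the whole range, past the 95% limit of Dixon's test. Astl read -1.53 on the same array, with the others between -1.82 and -1.81, and the gap was 0.979 of a much narrower range. The young blastocyst replicates differed by -0.29 for Astl, less than the median absolute difference of 0.43 between them over 22704 probes. The Astl gap is thus small, and passes because the other arrays lie so close together. By chance, about 5% of such sets of 4 pass this limit.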

How the results depend on the processing

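The stage count of 7 called probes ran from 7 to 8 with each array left out, and was 4 (of 4 tested) among probes well above background on every array and 4 (of 5) with 1 probe a gene, where fewer probes were tested. With no scaling between arrays, an alternative chosen after seeing the data, it stayed at 7. With the replicate block, the same split as the slides, 7 were called again and 14777 of all 24180 probes, against 16602. The block changed no member's call. Every stage difference kept its sign under all alternatives that could be computed. Age and interaction values of members not past the threshold changed sign as follows, and the cause was not tested. For age in blastocysts, with the percentile over detected probes, Zp1 was 0.075 and Astl 0.01. With normexp, Oosp1 A_51_P205042 was -0.037. With each array left out, Zp1 ran from -0.31 to 0.14, Zp3 A_52_P42762 from -1.36 to 0.16, and Oosp1 from -1.25 to 2.58 and from -1.26 to 3.46. For the interaction, Oosp1 was 0.006 and 0.063 with normexp and ran from -2.72 to 1.11 and from -3.25 to 1.47 with arrays left out, Zp1 from -0.43 to 0.019, and Zp2 A_52_P331981 from -0.26 to 0.061. The 103 interaction calls over all probes became 0 with quantile normalization, the authors' values or the replicate block, 278 with normexp and 49 with no filter, while member calls stayed at 0. For ooplast age, Oosp1 A_51_P205042 went from -0.14 to 0.007 with the percentile over detected probes. With normexp the ooplast age difference was 1.20 for Zp2 A_51_P177304 and -0.19 for A_52_P331981. Signals near background, as for Zp2 in blastocysts, are limited by the array's lowest measurable signal.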
